A study of Mus musculus with 4 samples.

Results

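Hmgcs1, Sqle, Idi1, Insig1, Cyp51, Fdft1, Lss and Srebf2, the 8 genes described here, are genes of cholesterol synthesis and its control. They were set by name, without a threshold on a measured value, but earlier results of these data were known when they were chosen. All 8 were in the exon table, among 22835 genes, and they held 101 of the 226463 exons used. RNA-seq had been run to ask whether the melanocyte regulator Mitf moves fibroblasts towards the melanocyte state. There was 1 poly(A) RNA library per condition, so no difference below has a replicate check and no p-value is given. The library labelled MEF is, by its labels, from wild-type mouse embryonic fibroblasts, connective tissue cells grown from embryos, at passage 3 and without doxycycline (Dox). Its column was matched by name, but its values are not those that the study lists for its own MEFs, so every comparison with MEF below is one with the library so labelled. Dox (-) and Dox (+) came from Mitf knock-in MEFs at passage 5, left untreated or given Dox for 6 days. Both knock-in libraries carry the same alleles, the M2rtTA transactivator at ROSA26 and a TetO-driven M-Mitf transgene at Col1a1, so that Dox switches on the melanocyte isoform of Mitf. The stem cells also carried a separate, constitutive mCherry transgene. The knock-in cells descend from 1 targeted embryonic stem cell clone and came from chimeric embryos, in which cells of the injected line mix with cells of the host blastocyst. Per the study, mCherry and a puromycin resistance cassette served to purify the transgenic cells, and how many host cells remained was not measured here. A wild-type library with Dox was not analysed here, so Dox itself and Mitf cannot be told apart, and passage and genotype cannot be told apart where MEF is compared. Primary melanocytes (PMel) were not analysed here.

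Cholesterol is built in a long chain of steps. HMG-CoA synthase stands near the start of the mevalonate pathway, squalene is then formed, oxidised and closed into lanosterol, and lanosterol is trimmed to cholesterol. SREBP-2, the product of Srebf2, is a membrane-bound transcription factor that is carried by SCAP to the Golgi and cut free when sterols are scarce. It then switches on most genes of the chain and Srebf2 itself. When sterols are plentiful, INSIG proteins hold SCAP and SREBP-2 in the endoplasmic reticulum, and in fibroblasts uptake from serum and synthesis within the cell both supply cholesterol.

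Values were RPKM, the reads on an exon per kb of its length, scaled by the aligned reads of the library. The level of a gene was that of its highest exon in each library, as in the study's methods, and a length-weighted mean over its listed exons is given as a second level. A gene was called higher or lower when it had over 10 RPKM in at least 1 of the 2 libraries compared and differed by more than 2-fold. Log2 fold changes are on the log2(RPKM + 1) scale, which understates the change of low genes. Low exons returned whole reads at depths of 44000000 to 45000000 reads per library. Intervals of 95% on reads cover counting error only. Mitf itself, read as a check of the labels, had 245 reads in MEF, 896 in Dox (-) and 10736 in Dox (+) on its longest exon. That exon holds the 3′ end of the gene, and whether the transgene keeps it is not known here, but the 76 bp exon with the highest level of Mitf in Dox (+) also went from 4 to 104 and 5164 reads.

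In Dox (+), 5 of the 8 genes were more than 2-fold lower than in Dox (-), against 11.1% of the 13307 genes tested, and none was more than 2-fold higher, against 10.8%. The 5 were Hmgcs1, Insig1, Idi1, Cyp51 and Sqle, and 2 of them, Hmgcs1 and Insig1, were more than 4-fold lower, against 5.41% of genes. Idi1, whose highest exon is 3 bp long, was 3.54-fold lower by that exon and 5.21-fold lower by the length-weighted mean. By the length-weighted mean 3 of the 8 were thus past 4-fold, and the share of all genes was not counted at that level. By the highest exon, the median log2 fold change of the 8 genes was -1.61, where that of all tested genes was 0.23. Fdft1 and Srebf2 were lower by less than 2-fold, and Lss was the 1 gene whose highest exon was higher. Against MEF, Dox (+) was more than 2-fold lower in 6 of the 8 genes, the same 5 with Fdft1, where 8.98% of the 12941 tested genes were lower and 20.2% higher. Hmgcs1 and Insig1 were again more than 4-fold lower, against 3.4% of genes, and Idi1 was 5.72-fold lower by the length-weighted mean. The median against MEF by the highest exon was -1.63 for the 8 genes and 0.27 for all tested genes. Dox (-) against MEF called 0 of the 8 genes in either direction, where 7.93% of the 13234 tested genes were lower and 17.3% higher, with a median of -0.18 for the 8 genes and 0.01 for all. The comparisons share libraries and are not independent of each other.

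**Figure D1:**
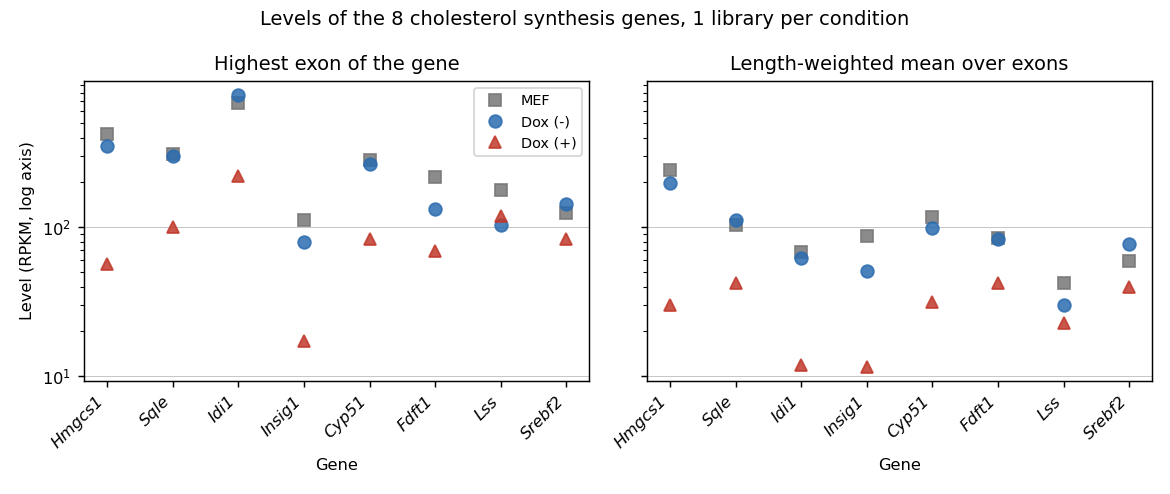
Levels of the 8 genes in RPKM on a log axis, by the highest exon (left) and by the length-weighted mean over exons (right); each point is 1 library. The Dox (+) triangle is below both other points for every gene except Lss on the left, where it sits at 119 RPKM between 103 in Dox (-) and 179 in MEF.

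Because the median of all genes lay above 0 in both comparisons with Dox (+), the libraries were also rescaled by the median ratio of expressed genes. The members more than 2-fold lower in Dox (+) than in Dox (-) then came to 7 of 8, with Lss the 1 left out. Over all genes, rescaling turned 11.1% lower and 10.8% higher into 14.1% lower and 6.27% higher. Against MEF the members stayed at 6 of 8, while 13.1% of all genes were then lower and 13.5% higher.

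Among the enzymes, Hmgcs1 moved most. It lies on the plus strand of mm10 at chr13:119690379-119708260 and encodes HMG-CoA synthase, an early enzyme of the mevalonate pathway. Its highest exon had 423 RPKM in MEF, 351 in Dox (-) and 56.3 in Dox (+). Dox (+) was therefore far below the other 2 libraries, 6.24-fold under Dox (-) and 7.52-fold under MEF. Its longest exon, the 1694 bp last one, had 16203, 11310 and 1446 reads in the same order, and Dox (+) was 7.65-fold lower there than Dox (-) with an interval of 7.24 to 8.08. Hmgcs1 was also ranked by its highest exon among 13587 genes above 10 RPKM in at least 1 library. It stood at percentile 88.1 in MEF, 86.0 in Dox (-) and 42.1 in Dox (+). By the length-weighted mean the percentiles were 91.9, 91.0 and 51.7.

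Idi1, on the plus strand at chr13:8885501-8892451, encodes isopentenyl diphosphate isomerase, which makes the second building block of the isoprenoid chain. Its highest exon had 689 RPKM in MEF, 778 in Dox (-) and 219.7 in Dox (+), but this exon is 3 bp long and rests on 93, 105 and 29 reads. Listed exons of 496, 54, 4 and 3 bp end at the same base and had 100, 98, 93 and 93 reads in MEF. Their RPKM in MEF was 4.48, 40.3, 517 and 689, so the height of this level comes from the short listed length. By the length-weighted mean Idi1 had 68.3 RPKM in MEF, 62.2 in Dox (-) and 11.9 in Dox (+). The 2134 bp longest exon gave a firmer value. It had 8614 reads in MEF, 7514 in Dox (-) and 1284 in Dox (+), so Dox (+) was 5.72-fold lower than Dox (-), with an interval of 5.39 to 6.08, and 6.56-fold lower than MEF.

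Squalene epoxidase, encoded by Sqle at chr15:59315077-59331192 on the plus strand, carries out the first oxygen-requiring step and is a slow step of the chain. Sqle had 308 RPKM in MEF, 300.3 in Dox (-) and 100.5 in Dox (+). MEF and Dox (-) differed by 1.03-fold, while Dox (+) was 2.99-fold below Dox (-), with an interval of 2.66 to 3.36 on the 1189 and 389 reads of that exon. Cyp51, on the minus strand at chr5:4081145-4104746, encodes lanosterol 14-alpha-demethylase, the first enzyme after ring closure. It followed the same order, with 282 RPKM in MEF, 264 in Dox (-) and 83.3 in Dox (+), the last 3.17-fold below Dox (-) and 3.39-fold below MEF. The last exon of Cyp51 shares 166 bp with Akap9 on the other strand, a gene at 15.0 RPKM or less in all 3 libraries.

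Fdft1 and Lss, the enzymes on either side of Sqle, differed less. Fdft1, on the minus strand at chr14:63145150-63179578, encodes squalene synthase, which commits the chain to sterols. It had 216 RPKM in MEF, 134 in Dox (-) and 69.4 in Dox (+), so that Dox (-) lay between the other 2 libraries. The 192 bp exon that was highest in MEF had 1868, 1044 and 515 reads, which put Dox (+) 1.98-fold below Dox (-), with an interval of 1.78 to 2.21, and 3.55-fold below MEF. The last exon of Fdft1 shares 771 bp with an exon of Ctsb on the other strand. The Ctsb exon had 178 RPKM in MEF, 818 in Dox (-) and 525 in Dox (+), and reads were not stated to be counted by strand. That last exon was the 1 exon of Fdft1 with more signal in Dox (-) than in MEF, by 1.57-fold, and the other 7 had less.

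Lss, on the plus strand at chr10:76531588-76557138, encodes lanosterol synthase, which closes the sterol rings. Its highest exon, 28 bp long, had 226 reads in MEF, 130 in Dox (-) and 146 in Dox (+), or 179, 103 and 119 RPKM. The 1.15-fold difference between Dox (+) and Dox (-) was within counting error, with an interval of 0.901 to 1.47. By the length-weighted mean the order was another one, with 42.1 RPKM in MEF, 29.9 in Dox (-) and 22.6 in Dox (+), and the 2543 bp last exon had 2790, 2056 and 1097 reads, 1.83-fold lower in Dox (+) than in Dox (-). The direction of Lss between the knock-in libraries thus depended on the exons read.

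The 2 members that act on control rather than synthesis were Insig1 and Srebf2. Insig1, on the plus strand at chr5:28071363-28078662, encodes the INSIG protein that retains SCAP and is itself an SREBP target. Its highest exon had 112 RPKM in MEF, 79.6 in Dox (-) and 17.3 in Dox (+), the lowest highest-exon level of the 8 genes in each library. There Dox (+) was 4.60-fold below Dox (-) and 6.50-fold below MEF, on 844, 598 and 127 reads in MEF, Dox (-) and Dox (+). By the length-weighted mean Insig1 had 87.2, 50.5 and 11.4 RPKM in that order and was the lowest of the 8 in Dox (+) only. Its 1872 bp last exon had 8743, 4786 and 1044 reads, 4.48-fold lower in Dox (+) than in Dox (-), with an interval of 4.19 to 4.80. The percentile of Insig1 among expressed genes was 64.4 in MEF, 53.6 in Dox (-) and 18.1 in Dox (+) by the highest exon. By the length-weighted mean it was 80.4, 68.7 and 27.8. Srebf2, on the plus strand at chr15:82147181-82205379, had 126 RPKM in MEF, 144 in Dox (-) and 83.6 in Dox (+), a 1.72-fold difference between the knock-in libraries that did not reach the call. Its 1683 bp last exon had 3896, 4481 and 1824 reads and was 2.40-fold lower in Dox (+) than in Dox (-), with an interval of 2.27 to 2.54. Srebf2 was the 1 member in which all 18 listed exons had more signal in Dox (-) than in MEF, by 1.15-fold to 1.67-fold.

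Promoters of the members were searched for planned motifs, and 1 shorter form was added later. The RefSeq promoter table (GRCm38.p6, 250 bases before to 50 after the start) held 6 of the 8 genes, without Sqle and Fdft1. A sterol regulatory element, searched on both strands as TCACNCCAC, was in the Hmgcs1 promoter, 137 bases upstream of the start, and in 1.24% of 32851 promoters. The shorter form TCACCCCA, searched after the promoters had been seen, was also in Srebf2, 162 bases upstream, and in 1.56% of promoters. The 2 forms overlap in Hmgcs1. A CCAAT box, the letters bound by NF-Y, was in all 6 promoters and in 37.4% of all promoters. Of the E-boxes that MITF family proteins bind, CACGTG was in Insig1 alone of the 6, 101 bases upstream, and in 7.15% of promoters, and CATGTG was in none of the 6 and in 14.2% of promoters. The windows of Hmgcs1 (chr13:119690104-119690320), Insig1 (chr5:28071186-28071326), Srebf2 (chr15:82147097-82147148) and Lss (chr10:76531533-76531557) are shown, all on the plus strand. They are those of the 2 members past 4-fold by the highest exon, the regulator itself and the member that moved least. The window of Idi1, past 4-fold by the length-weighted mean, is not shown. Capitals mark the matches, where ATTGG is CCAAT on the other strand. A match of letters is not evidence of binding.
Hmgcs1: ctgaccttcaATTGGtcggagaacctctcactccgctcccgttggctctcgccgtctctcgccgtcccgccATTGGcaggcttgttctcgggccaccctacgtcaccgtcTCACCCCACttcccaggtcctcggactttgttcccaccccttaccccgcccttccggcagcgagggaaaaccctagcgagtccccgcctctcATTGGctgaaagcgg
Insig1: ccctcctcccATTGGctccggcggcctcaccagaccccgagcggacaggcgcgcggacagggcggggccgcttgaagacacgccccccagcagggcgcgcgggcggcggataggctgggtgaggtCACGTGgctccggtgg
Srebf2: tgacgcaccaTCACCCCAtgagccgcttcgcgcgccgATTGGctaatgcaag
Lss: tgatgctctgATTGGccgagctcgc

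Read exon by exon, the lower values in Dox (+) ran along whole genes. Of the 101 listed exons, some of which overlap within a gene, 95 had over 10 RPKM in Dox (+) or Dox (-), and 89 of these were lower in Dox (+). More than 2-fold lower were 54, or 56.8%, against 10.4% of the 139093 exons of all genes. Each of the 10 exons of Hmgcs1 was lower, by 4.78-fold to 7.65-fold, as were the 4 exons of Insig1 above the limit, by 4.36-fold to 4.80-fold. The 9 exons of Idi1 above the limit were lower by 3.33-fold to 6.32-fold, the 12 of Sqle by 2.43-fold to 2.99-fold and the 10 of Cyp51 by 2.15-fold to 3.64-fold. Fdft1 and Srebf2 had narrower differences, 1.70-fold to 2.12-fold over 8 exons and 1.20-fold to 2.40-fold over 18. Lss alone was mixed, with 18 of 24 exons lower and 1, its first, more than 2-fold higher on 35 reads against 15.

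**Figure D2:**
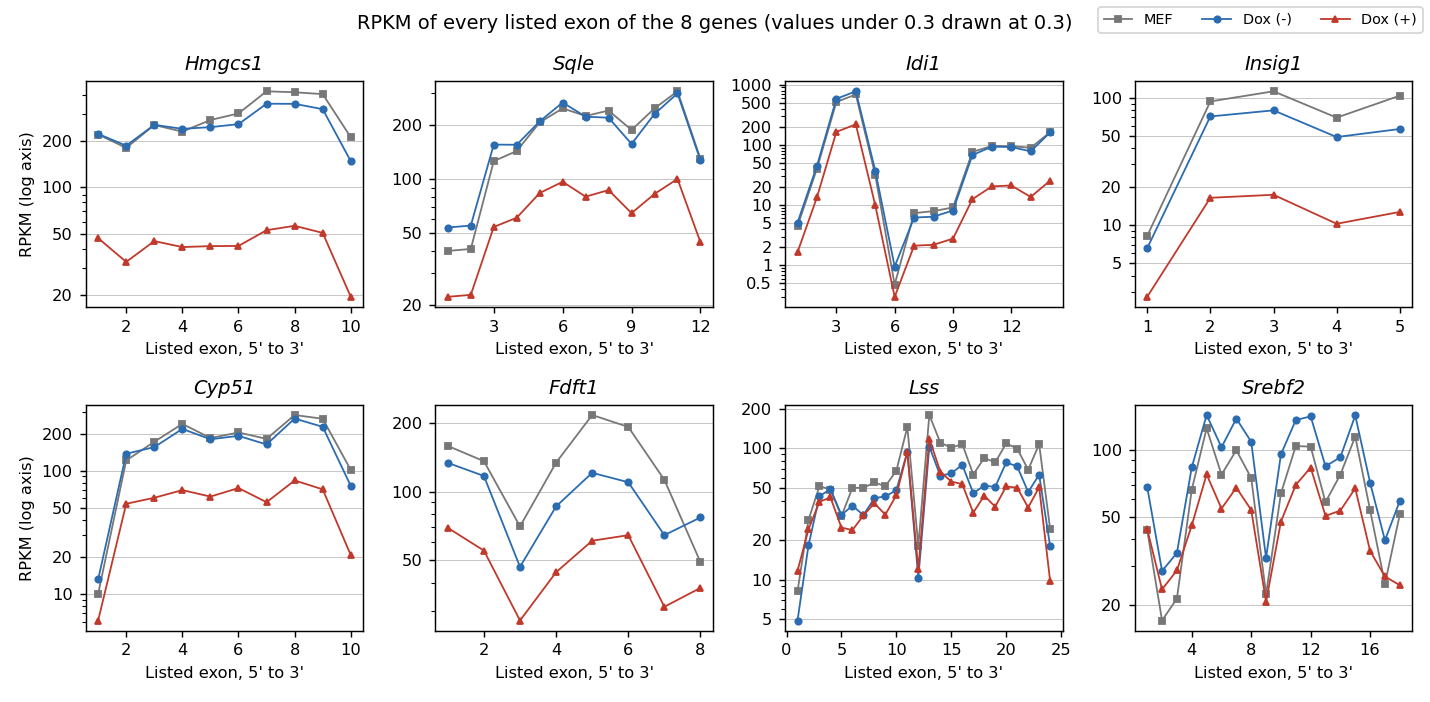
RPKM on a log axis of each listed exon of the 8 genes, ordered 5′ to 3′, with 1 line per library; values under 0.3 are drawn at 0.3. The Dox (+) line runs below the other 2 over the whole of Hmgcs1, Sqle, Idi1, Insig1 and Cyp51, crosses Dox (-) in Lss, and in Srebf2 meets or passes MEF over the first exons.

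The same reading against MEF gave 90 of 95 exons lower in Dox (+) and 56 more than 2-fold lower, where 8.03% of all exons were. Between Dox (-) and MEF, 57 of 94 exons were lower and 37 were higher. Of these, 0 were more than 2-fold lower, where 5.35% of all exons were, and 0 were more than 2-fold higher. For all exons, the share more than 2-fold higher and the share lower by any amount were not counted in any comparison. The 4 exons of Insig1 above the limit were all lower in Dox (-), by 1.31-fold to 1.83-fold.

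Position along the transcript moved with these values and was a property of the libraries. In 4639 genes whose first and last listed exons both passed the limit, the log2 fold change of Dox (+) against Dox (-) was lower at the last exon than at the first by a median of 0.39 (quartiles of the difference -0.64 and -0.14), and 86.1% of genes had this sign. The median difference was -0.64 in Dox (+) against MEF, with 87.7% of 4490 genes below 0. It was -0.22 in Dox (-) against MEF, with 71.2% of 3977 genes below 0. Hmgcs1 went from -2.23 at its first listed exon to -2.87 at its last, Cyp51 from -0.99 to -1.81 and Srebf2 from -0.62 to -1.23. The first listed exon of Srebf2 starts at 82169738, downstream of the gene start at 82147181. Lss went from 1.11, on 35 reads against 15, to -0.81, and only 0.67% of genes had a lower difference. The ends of Fdft1 differed by -0.07. The longest exons of the members were the last exons except in Sqle. On longest exons 7 of the 8 members were more than 2-fold lower in Dox (+) than in Dox (-), all but Lss, against 9.56% of genes. Against MEF, 6 of 8 were more than 2-fold lower on longest exons, all but Sqle and Fdft1, against 10.3%. The longest exon of Fdft1 is the one that shares 771 bp with Ctsb. At their first listed exons Hmgcs1, Sqle, Cyp51, Fdft1 and Srebf2 were 4.78-fold, 2.43-fold, 2.15-fold, 1.92-fold and 1.55-fold lower in Dox (+) than in Dox (-). The first exons of Idi1 and Insig1, under the limit of 10 RPKM, were 3.10-fold and 2.41-fold lower, and that of Lss was higher. What part position has in the differences of the members was not tested.

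Levels per length changed their order with Dox. By the length-weighted mean, Hmgcs1 was the highest of the 8 in MEF at 244 RPKM and in Dox (-) at 198, and was the fifth in Dox (+) at 30.3. Sqle was first in Dox (+) at 42.3, next to Fdft1 at 42.2 and Srebf2 at 39.8. The mean of Fdft1 includes its 1816 bp last exon, which shares 771 bp with Ctsb. Insig1 and Idi1, at 11.4 and 11.9, were last in Dox (+), below Lss at 22.6, which was last in MEF and Dox (-). The spread among the 8 genes thus ran from 29.9 to 198 RPKM in Dox (-) and from 11.4 to 42.3 in Dox (+). Neighbours such as Sqle and Fdft1 in Dox (+) cannot be ordered from 1 library each.

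The cell types in the libraries differed as well. In bulk RNA, fewer cells of a type and less RNA per cell cannot be told apart. All 8 macrophage markers examined were more than 4-fold lower in Dox (+) than in Dox (-), with a summed level of 51.0 RPKM in MEF, 12978 in Dox (-) and 470.0 in Dox (+), and none was at 0 in any library. The part of these cells in the difference between Dox (+) and Dox (-) was not tested. In MEF, where the macrophage sum was lowest, the members were at 112 to 689 RPKM, the highest being the 3 bp exon of Idi1. By the length-weighted mean they were at 42.1 to 244 RPKM in MEF. By the highest exon, Dox (+) was lower than MEF in all 8 members and more than 2-fold lower in 6. The largest folds were those of Hmgcs1, 7.52, and Insig1, 6.50, while Lss and Srebf2 were lower by less than 2-fold. MEF also differs in passage and genotype, so the part of the macrophages was not tested there either. The 8 fibroblast markers ran from 18.9 to 24417 RPKM in MEF, 86.6 to 17942 in Dox (-) and 48.2 to 24345 in Dox (+), with Pdgfra, a growth factor receptor, the lowest in each library. Of the 8, Col1a1, Col1a2 and Col3a1 were more than 4-fold lower in Dox (+) than in Dox (-), and none was more than 2-fold higher by its highest exon. The 6 melanocyte markers summed to 4.35, 13.4 and 261 RPKM in MEF, Dox (-) and Dox (+). Of these, Tyrp1 and Mlana were at 110 and 133 RPKM in Dox (+) and under 1 in the other 2 libraries, while Dct stayed under 1 in all 3. Sox10, a transcription factor of the melanocyte lineage, had the other order, with 0.051 RPKM in MEF, 6.69 in Dox (-) and 1.66 in Dox (+). Epithelial markers summed to 56.2, 4.39 and 28.8 RPKM in MEF, Dox (-) and Dox (+). Of the Dox (+) sum, 26.9 RPKM was Krt14, which had 32.8 in MEF and 2.12 in Dox (-), while Cdh1 was at 21.7, 1.08 and 0.70 RPKM, and Epcam and Krt5 were under 2 in all 3.

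Elsewhere in the synthesis chain, 13 other enzymes were read. Of them, 2 were more than 2-fold lower in Dox (+) than in Dox (-), where 11.1% of all genes were lower. None was more than 2-fold higher, and the median log2 fold change was -0.45. The count was 5 with rescaled libraries, against 14.1% of all genes, and 5 on longest exons, against 9.56%. The 2 were Msmo1, which removes the methyl groups at carbon C-4, and Hsd17b7, a ketone reductase of the C-4 steps. Msmo1 had 377 RPKM in MEF, 251 in Dox (-) and 68.2 in Dox (+), a 3.68-fold difference between the knock-in libraries. Hsd17b7 had 31.6, 115 and 56.6 RPKM in that order and was 2.02-fold lower in Dox (+) than in Dox (-), a difference that was under 2-fold, at -0.81 on the log2 scale, by the median over exons. Mvk and Ebp, which phosphorylates mevalonate and which shifts a ring double bond, had log2 fold changes of 0.08 and 0.20. Against MEF, 5 of the 13 were more than 2-fold lower in Dox (+) and 0 higher, against 8.98% and 20.2% of all genes, with a median of -0.61. The largest were Msmo1 at 5.52-fold and Acat2, the cytosolic thiolase that starts the chain, at 4.10-fold. Between Dox (-) and MEF, 2 of the 13 were called lower in Dox (-) and 1 higher, against 7.93% and 17.3% of all genes. The lower ones were Acat2, by 2.34-fold, and Pmvk, by 2.05-fold. Acat2 had 702 RPKM in MEF, 300.1 in Dox (-) and 171 in Dox (+). Hsd17b7 was the 1 enzyme called higher in Dox (-) than in MEF, by 3.63-fold.

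**Figure D3:**
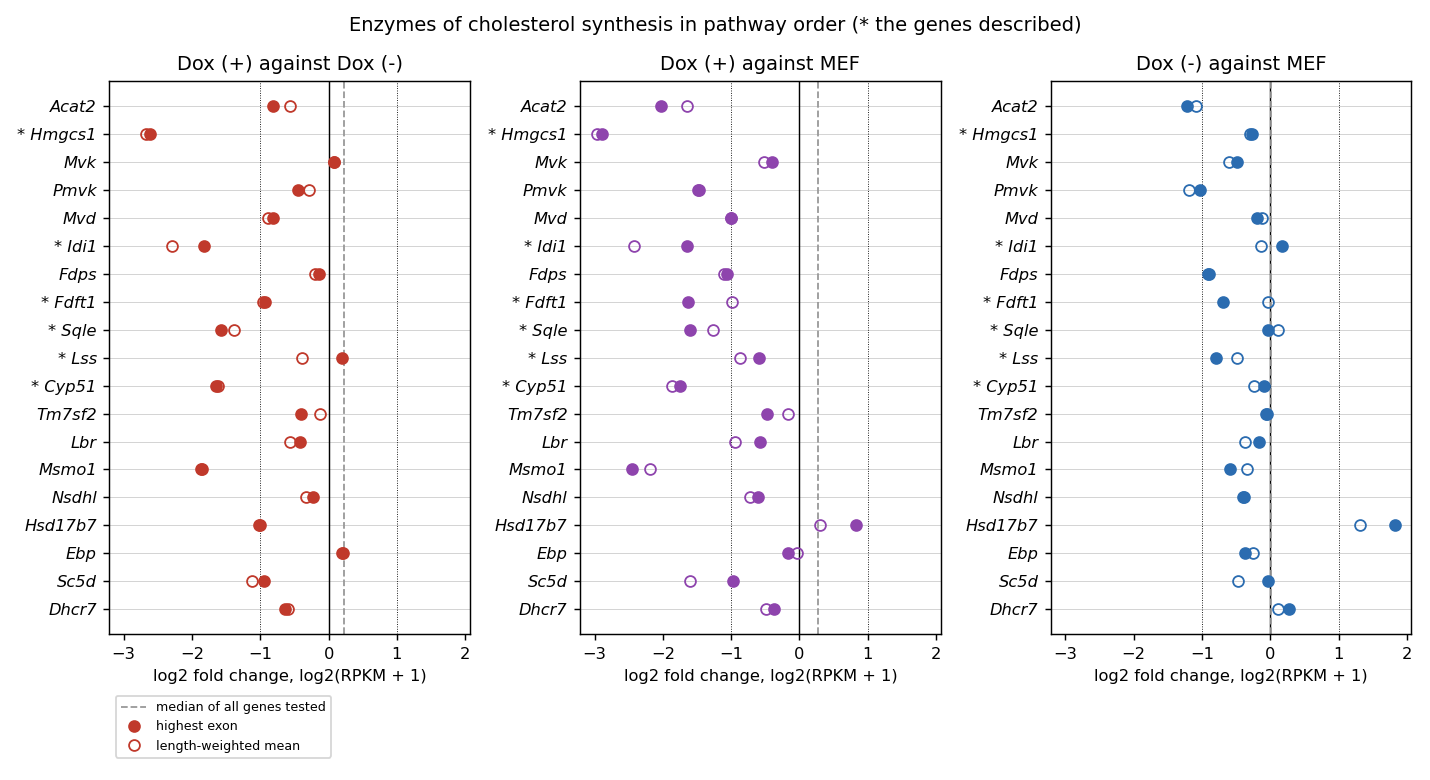
Log2 fold change on the log2(RPKM + 1) scale of enzymes of cholesterol synthesis in the order of the pathway from the top, in the 3 comparisons; filled points are the highest exon, open points the length-weighted mean, starred names the members, and the dashed line the median of all tested genes. By the highest exon, Hmgcs1 at -2.62 and Msmo1 at -1.87 lie furthest left in the left panel, and Mvk, Ebp and the highest exon of Lss lie right of 0.

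Uptake and intracellular transport of cholesterol were read in 7 genes. In Dox (+), 2 were more than 2-fold lower than in Dox (-) and 0 higher, against 11.1% and 10.8% of all genes, with a median of -0.41. Lrp1, a large endocytic receptor, and Lipa, the lysosomal lipase that frees cholesterol, were the 2, lower by 2.33-fold and 2.11-fold. The call of Lrp1 was lost by the length-weighted mean, at 1.55-fold, and its log2 fold change was -0.56 by the median over exons and -0.41 on its longest exon. Stard4, a carrier of free cholesterol within the cell, was 1.99-fold lower by its highest exon and 2.86-fold lower by the length-weighted mean. Lrp1 had 517 RPKM in MEF, 1659 in Dox (-) and 712 in Dox (+). Lrp1 and Lipa, 2 of the 7, were called higher in Dox (-) than in MEF, by 3.21-fold and 2.16-fold, where 17.3% of all genes were. Of the 8 members, 0 were called in that comparison, and by the highest exon they ran from 1.74-fold lower (Lss) to 1.15-fold higher (Srebf2). Scarb1, the HDL receptor, was the 1 called lower in Dox (-) than in MEF, by 2.38-fold, where 7.93% of all genes were. Against MEF, 1 of the 7 was called lower in Dox (+) and 1 higher, where 8.98% and 20.2% of all genes were. Stard4 was the lower one, by 2.41-fold. Npc1, which moves cholesterol out of lysosomes, was higher by 2.05-fold, a call that was lost with rescaled libraries.

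Of 5 partners of Srebf2 in its control, 0 were called between Dox (+) and Dox (-), where 11.1% of all genes were lower and 10.8% higher. Their median was 0.17, and Scap was called higher on its longest exon. Srebf1, which encodes the related SREBP-1, had 93.7 RPKM in MEF, 98.0 in Dox (-) and 97.4 in Dox (+). Insig2, the relative of Insig1, had 258, 230 and 316 RPKM, where Insig1 was 4.60-fold lower in Dox (+) than in Dox (-). Scap, the escort of SREBP-2, was more than 2-fold higher than in MEF both in Dox (+) and in Dox (-), at 70.0, 164 and 184 RPKM in MEF, Dox (-) and Dox (+).

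The fatty acid genes that SREBP proteins also drive were 9 in number. Between Dox (+) and Dox (-) 0 of them were called, against 11.1% of all genes lower and 10.8% higher, with a median of -0.23. Fasn, the fatty acid synthase, had 149, 163 and 139 RPKM in MEF, Dox (-) and Dox (+). Acss2, which makes acetyl-CoA from acetate, had the largest log2 value of this list, 0.83, but its direction depended on the exons read, with 0.12 by the length-weighted mean, -0.46 by the median over exons and -0.56 on its longest exon. Against MEF, Dox (+) was more than 2-fold lower in the desaturases Fads1 and Fads2 and the elongase Elovl6, by 2.09-fold, 3.19-fold and 2.34-fold, with a median of -0.10 over the list. These 3 of 9 stand against 8.98% of all genes, and 6 of the 9 were lower on longest exons, against 10.3%. Fads2 was also 2.29-fold lower in Dox (-) than in MEF. Acaca, acetyl-CoA carboxylase, was 2.28-fold higher by its highest exon, a direction that turned by the length-weighted mean.

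Genes of cholesterol efflux and storage, many of them driven by the sterol-sensing LXR receptors, were mixed between Dox (+) and Dox (-). Of 6 listed, 5 were tested, with 1 called higher and 1 lower, against 10.8% and 11.1% of all genes, and the median log2 fold change was 0.15, where that of all genes was 0.23. Abcg1, a sterol exporter, had 1.16 RPKM in MEF, 9.71 in Dox (-) and 41.0 in Dox (+), 4.22-fold higher in Dox (+) than in Dox (-). It was the 1 gene of this list called higher there, and its log2 fold change against MEF was 4.28. Abca1, which loads cholesterol onto apolipoprotein A-I, had 33.8, 68.9 and 121 RPKM, 1.75-fold higher in Dox (+) than in Dox (-) and 3.57-fold higher than in MEF. Apoe, a lipid carrier made in large amounts by macrophages, was called lower in Dox (+) than in Dox (-), by 2.71-fold, and higher than in MEF, by 7.81-fold, with 129, 2717 and 1004 RPKM in MEF, Dox (-) and Dox (+). Macrophage markers stood in the order of Apoe, lowest in MEF and highest in Dox (-), and their part in its level was not tested. Soat1, which stores cholesterol as esters, was 2.26-fold higher in Dox (-) than in MEF.

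**Figure D4:**
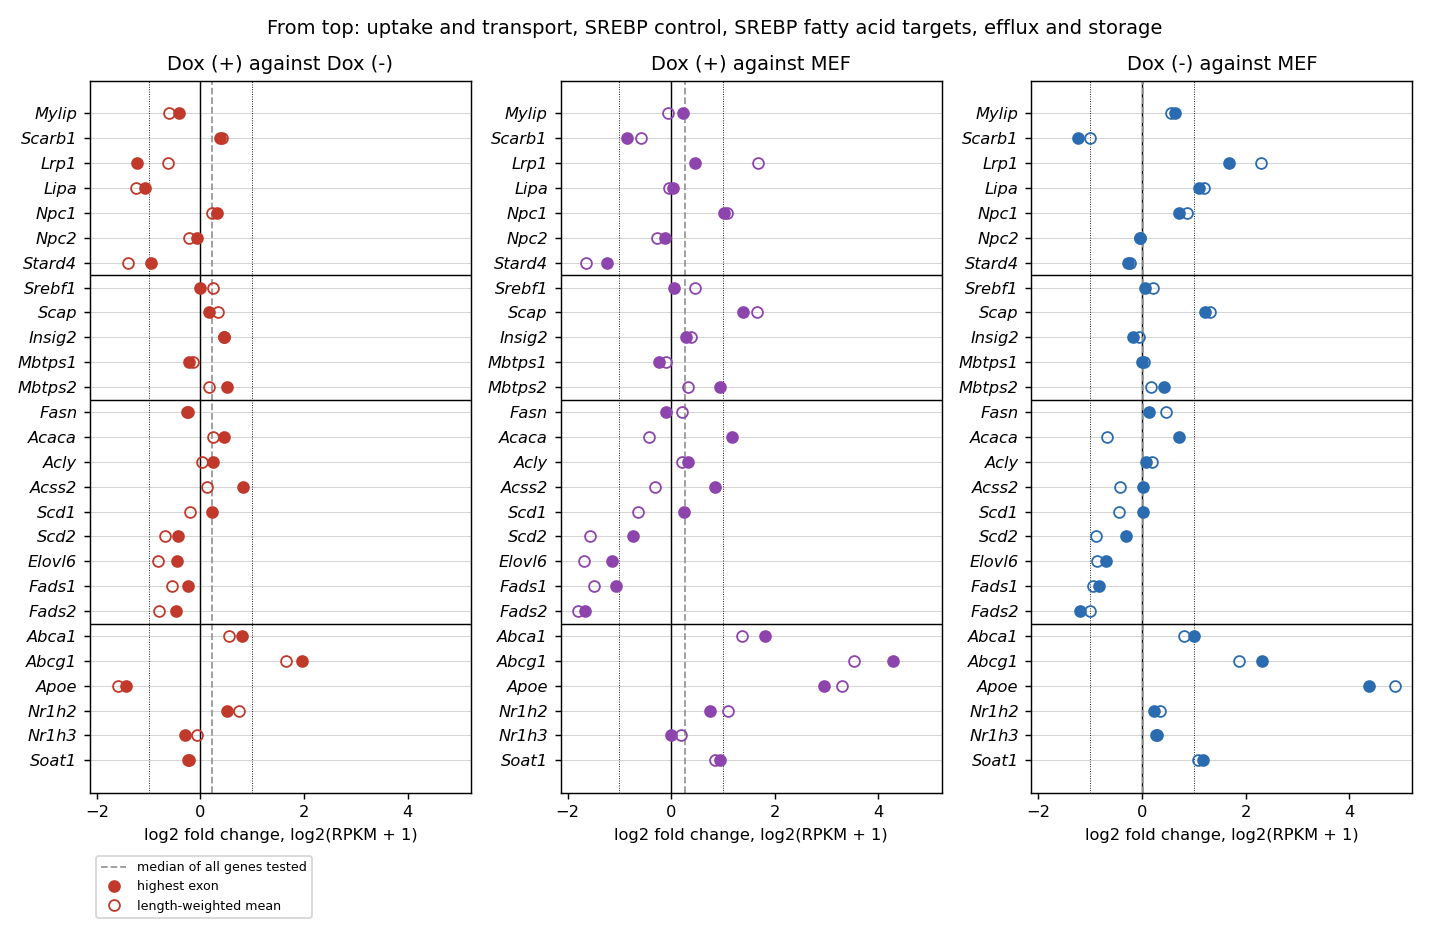
Log2 fold change on the log2(RPKM + 1) scale of genes of uptake and transport, SREBP control, SREBP fatty acid targets and efflux and storage, from the top, in the 3 comparisons; filled points are the highest exon, open points the length-weighted mean, and the dashed line the median of all tested genes. Abcg1 stands apart at the right of both panels with Dox (+), at 1.97 and 4.28, while the highest-exon points of SREBP control lie from -0.22 to 0.52 in the left panel.

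The 3-library pattern of the members could also be compared with every other gene. Sqle and Cyp51 were nearest to the median of the members. Of 13579 other expressed genes, the 5 with the smallest distance to that median, taken over 3 centred log2 values, were Trim5, Tgtp2, Haus5, Atp1b1 and Kifc1, at distances of 0.0578 to 0.100. Trim5, for one, had 828 RPKM in MEF, 836 in Dox (-) and 267 in Dox (+). None of the 5 was on the sterol lists, where Stard4 was at rank 151, Msmo1 at 264 and Sc5d at 275. Nothing about shared control follows from a pattern over 3 libraries.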

How the data were processed

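The authors prepared poly(A) RNA with the TruSeq v2 kit, aligned reads to mm10 with TopHat2 2.0.10 (bcl2fastq 2.17.1.14 and bedtools are also in the submitters' processing notes), counted reads on Ensembl exons and deposited an RPKM value for each (counts scaled to exon length and to the aligned reads of the library). Strand-specific counting is not stated. Columns were matched to libraries by name, and 1 column was left unused. The unused column has a name that matches no label, and PMel has no column of its name. The column of the library labelled MEF does not hold the MEF values of the study's own supplementary list. Of 234718 exons, 228132 matched GENCODE M21, 6586 did not, and 226463 lay in genes of the 3 biotypes the study kept (protein coding, lincRNA, pseudogene).

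Reads were recovered with a divisor per library, searched from 20 to 80 on the RPKM scale. Of values below 200 reads, 97.2% in MEF, 97.0% in Dox (-) and 96.9% in Dox (+) came within 0.02 of a whole read. Fold intervals came from the exact binomial interval of the reads of 2 libraries, and 3 reads was the floor. The genes named are the 8 members, from 5 further sterol and lipid lists those with the 3 largest rises and falls per comparison and others as examples, the 5 nearest patterns, and Mitf. Members and lists were chosen with earlier results of these data known. Some listed genes are not reported here and are in no list count. Alternatives were another pseudocount (5), filter, fold (4), gene level and scaling, and the longest exon, a choice made with the values in view. Scripts were tested on simulated data. Python 3.11.15, pandas 2.3.3, NumPy 2.4.6, SciPy 1.17.1 and matplotlib 3.10.9 were used.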

Additional observations from a re-analysis of the deposited data

How the results depend on the processing

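The median log2 fold change of the 8 genes in Dox (+) against Dox (-) was -1.61, and it was -1.40 with the median over exons and -1.84 with rescaled libraries. Against MEF it was -1.63, and -1.91 with rescaled libraries. By the highest exon, a fold above 4 left 2 genes in each of these comparisons (in place of 5 and 6). These stood against 5.41% and 3.4% of all genes. By the length-weighted mean the count was 3 in each, and the share of all genes was not counted at that level. The other 28 values of this kind, including the 0 genes called in Dox (-) against MEF, kept their direction. They moved within a counting limit or, for counts, by no more than 1.5-fold. On the log2 scale the limit was 0.187 for Dox (+) against Dox (-), 0.188 for Dox (+) against MEF and 0.135 for Dox (-) against MEF. It was the same for all genes, while the half-width of the counting interval in Dox (+) against Dox (-) was 0.63 for Idi1 and 0.35 for Lss. Among the values of single genes and of the other lists, 544 alternatives moved within those limits, 425 moved further and 2 turned the direction of a called gene. Both were of 1 gene. Acaca, 1.17 on the log2 scale in Dox (+) against MEF, was -0.43 by the length-weighted mean and -1.20 on its longest exon. The cause was not tested beyond the change of exons read. In Dox (+) against Dox (-), 7 of the 8 members were below 0 under all 6 settings and Lss under 4, from -0.81 to 0.20. No paired analysis was possible because each condition has 1 library, and no library could be left out. The planned PMel comparisons were not run. Depth limits the short highest exons of Idi1 and Lss most, and the level of the 3 bp exon of Idi1 is also raised by its short length.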
